A study of Tupaia belangeri with 6 samples.

Results

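The immediate-early and activity genes examined here were FOS, FOSB, JUN, JUNB, EGR1, EGR3, ARC, NPAS4, NR4A1 and BDNF. They were taken by symbol from the features of 6 single-nucleus RNA sequencing (snRNA-seq) libraries of tree shrew (TS, Tupaia belangeri) hippocampus, in which 10 of 83605 features carried these names and each symbol matched 1 feature. Features were matched by symbol alone, but the 10 genes were chosen with earlier results of these data known.

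Immediate-early genes are transcribed within minutes of a stimulus, without prior protein synthesis, when calcium entry and kinase signalling activate factors such as CREB, SRF and MEF2 that already sit on their promoters. In hippocampal neurons this programme follows synaptic activity and is widely read as a trace of recent firing, but several of its members also respond to growth factors and to cell stress in glia and vessels. FOS, FOSB, JUN and JUNB pair into the AP-1 transcription factor, EGR1 and EGR3 are zinc-finger factors, NPAS4 is a neuronal factor induced by calcium, and NR4A1 is an orphan nuclear receptor. ARC and BDNF act downstream: ARC encodes a protein that removes AMPA receptors from synapses, and BDNF encodes a secreted neurotrophin whose receptor is TrkB.

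The study set naturally aged TSs with Alzheimer's-like pathology (ALP, titled AD in the labels) against age-matched healthy controls (titled Normal), both chosen from a cohort by pipeline maze performance. There were 3 ALP and 3 control libraries, 1 per animal, from flash-frozen hippocampus, and sex was not given for single libraries. No genotype or agent separated the groups, so ALP is defined by behaviour in old animals. Brains were collected after imaging under anaesthesia and perfusion with saline, and the maze used for selection included training and test phases. The time from the maze to collection is not given in the sources used here, and the values below are levels at collection.

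The files held 37603 nucleus barcodes, of which 28233 passed the limits the study states (200 to 2500 genes and at most 5% mitochondrial counts). The libraries kept 1614 to 7022 nuclei, control 2 the fewest, and 4159545 to 15412799 unique molecular identifiers (UMIs, counted molecules). Nuclei were clustered again without the 10 genes and named from markers. The 10 named classes held 24452 nuclei, and 8 of them are used below: oligodendrocyte-like (Oligo-like, 8088 nuclei), astrocyte-like (Astro-like, 3227), excitatory neurons outside the dentate granule layer (ExN-like, 2857), dentate granule neurons (Gran-like, 2736), oligodendrocyte progenitors (OPC-like, 2719), inhibitory neurons (InN-like, 2437), microglia-like (Micro-like, 1616) and endothelial-like (Endo-like, 498). The 7 Astro markers summed to 4295 to 5580 CPM (counts scaled so that all UMIs of a library's class add up to 1000000) in Astro-like nuclei against 50.4 to 172 CPM in the neuron classes. ExN markers were less sharp, at 715 to 979 CPM in ExN-like and 530 to 734 CPM in Gran-like nuclei, and MOBP, GAD2 and NRGN were at 0 in all classes. A cluster of 1952 nuclei with excitatory markers was kept apart for its low depth, and 1175 of them came from control 3.

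These genes were near the limit of detection. The kept nuclei held 385 UMIs of FOS (TSDBGID.21465), 10 of FOSB (TSDBGID.18306), 723 of JUN (TSDBGID.24585), 446 of JUNB (TSDBGID.18443), 186 of EGR1 (TSDBGID.12147), 222 of EGR3 (TSDBGID.17270), 376 of ARC (TSDBGID.8053), 83 of NPAS4 (TSDBGID.11886), 78 of NR4A1 (TSDBGID.24204) and 888 of BDNF (TSDBGID.11610). The limit of 2500 genes removed the deepest nuclei. Only 31.4% of the ARC UMIs and 33.3% of the BDNF UMIs in the files lay in kept nuclei, against 60.7% for FOS and 39.6% over all features. At least 1 UMI of any of the 10 genes was found in 570 of 2857 ExN-like nuclei (19.95%) and 605 of 2736 Gran-like nuclei (22.1%), against 342 of 8088 Oligo-like nuclei (4.23%). Median depth was 4262 UMIs per nucleus in ExN-like, 4284 in InN-like, 2900.5 in Gran-like, 1880 in Astro-like, 1859 in OPC-like, 1331 in Oligo-like, 1209 in Endo-like and 1108 in Micro-like nuclei, so levels are given as CPM of the UMIs summed per class and library. All intervals and zero counts cover counting error only.

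**Figure D1:**
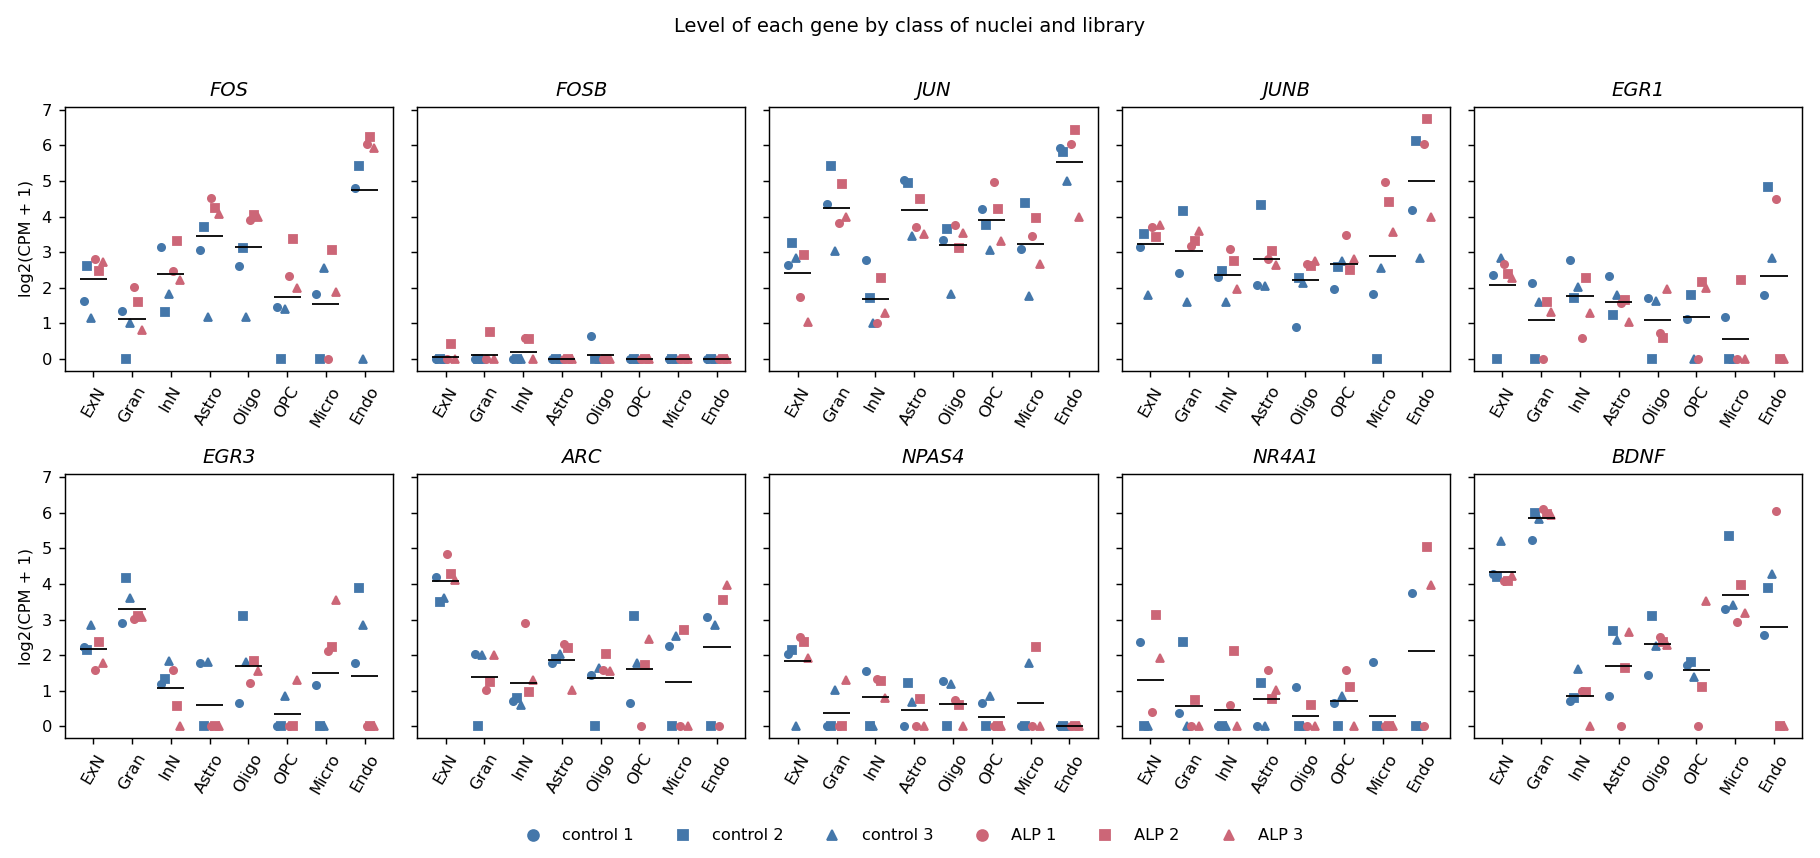
Level of each gene in 8 classes of nuclei, as log2(CPM + 1) of the UMIs summed per class and library, with 1 point per library (blue control, red ALP) and a bar at the mean of the 6 libraries. BDNF stood highest in Gran-like nuclei and ARC in ExN-like nuclei. FOS, JUN, JUNB, EGR1 and NR4A1 were highest in Endo-like nuclei, where 29 to 219 nuclei per library gave few UMIs and a wide spread.

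Among the AP-1 genes, FOS was highest in endothelial, astrocyte and oligodendrocyte nuclei. Its mean level was 44.4 ± 27.6 CPM (SD, n = 6 libraries) in Endo-like, 12.7 ± 7.51 in Astro-like and 9.73 ± 5.91 in Oligo-like nuclei, against 4.84 ± 2.96 in InN-like, 4.11 ± 1.98 in ExN-like, 3.27 ± 3.23 in OPC-like, 2.89 ± 2.83 in Micro-like and 1.4 ± 1.07 in Gran-like nuclei. Oligo-like nuclei alone held 105 of the 385 FOS UMIs (27.3%) and Gran-like nuclei 13 (3.38%). A FOS UMI was found in 93 of 8088 Oligo-like nuclei (1.15%, Wilson 95% interval 0.940 to 1.41%) and in 9 of 2736 Gran-like nuclei (0.329%, 0.173 to 0.624%), although Gran-like nuclei were the deeper. FOSB had 10 UMIs in all: Astro-like, OPC-like, Micro-like and Endo-like nuclei had none, which allows up to 0.466 CPM in Astro-like nuclei and up to 3.54 CPM in Endo-like nuclei, so its class pattern was not detectable at this depth.

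JUN, the basic AP-1 partner, was also highest in Endo-like nuclei (51.6 ± 25.0 CPM, SD, n = 6), followed by Gran-like (20.9 ± 12.6), Astro-like (19.2 ± 9.84) and OPC-like nuclei (15.6 ± 8.27). It was lowest in ExN-like (5.00 ± 2.81) and InN-like nuclei (2.56 ± 1.92). FOS and JUN thus parted in the neurons, since Gran-like nuclei ranked second of 8 classes for JUN and last for FOS. A JUN UMI was found in 150 of 2736 Gran-like nuclei (5.48%, 4.69 to 6.40%) against 26 of the deeper 2437 InN-like nuclei (1.07%, 0.729 to 1.56%). JUNB was spread more evenly: 46.3 ± 39.7 CPM in Endo-like nuclei, and between 4.05 ± 1.82 in Oligo-like and 11.4 ± 11.7 in Micro-like nuclei elsewhere.

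Of the zinc-finger factors, EGR1 stood at 3.96 ± 2.13 CPM (SD, n = 6) in ExN-like nuclei, 2.82 ± 1.88 in InN-like nuclei and 1.49 ± 1.31 in Gran-like nuclei. Its highest mean was in Endo-like nuclei, at 9.62 ± 11.9 CPM from 5 UMIs. In glia EGR1 ran from 0.818 CPM in Micro-like to 2.18 CPM in Astro-like nuclei. EGR3 had another order among neurons, with 9.42 ± 3.99 CPM in Gran-like nuclei, 3.65 ± 1.47 in ExN-like nuclei and 1.31 ± 0.955 in InN-like nuclei. Its level in Gran-like nuclei exceeded that in ExN-like nuclei on average, and 64 of its 222 UMIs (28.8%) were there. Endo-like nuclei came next below Gran-like nuclei for EGR3, at 3.74 ± 5.49 CPM from 3 UMIs. In glia EGR3 stood at 3.17 ± 4.03 CPM in Micro-like and 2.76 ± 2.51 CPM in Oligo-like nuclei, and lower in Astro-like (0.822 ± 1.27, 7 UMIs) and OPC-like nuclei (0.384 ± 0.631, 2 UMIs). Micro-like nuclei also held transcripts of the 7 Gran markers, at 553 to 1496 CPM against 241 to 311 CPM in Oligo-like nuclei. Their part in the EGR3 level was not tested.

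ExN-like nuclei held 42 of 83 NPAS4 UMIs (50.6%) and 39 of 78 NR4A1 UMIs (50%). NPAS4 reached 3.04 ± 1.64 CPM (SD, n = 6) there and at most 1.01 ± 1.62 CPM in any other class, and no UMI was found in 498 Endo-like nuclei, which allows up to 0.602% of nuclei. NR4A1 reached 2.5 ± 3.06 CPM in ExN-like nuclei, but 1 library carried most of it: ALP 2 held 22 of the 39 UMIs. The 9 NR4A1 UMIs of Endo-like nuclei corresponded to 9.83 ± 12.7 CPM.

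Both effectors were highest in a class of neurons. ARC stood at 16.8 ± 6.29 CPM (SD, n = 6) in ExN-like nuclei, which held 230 of its 376 UMIs (61.2%), and at 1.91 ± 1.30 CPM in Gran-like and 1.81 ± 2.34 CPM in InN-like nuclei. An ARC UMI was found in 188 of 2857 ExN-like nuclei (6.58%, 5.73 to 7.55%), against 0.621% of Gran-like and 0.297% of Oligo-like nuclei. BDNF stood at 57.5 ± 11.02 CPM in Gran-like and 20.1 ± 7.73 CPM in ExN-like nuclei and at 0.904 ± 0.673 CPM in InN-like nuclei. Endo-like (17.0 ± 24.5 CPM, 9 UMIs) and Micro-like nuclei (14.6 ± 12.6 CPM, 28 UMIs) came next below ExN-like nuclei. The low-depth cluster kept apart stood at 27.0 ± 8.06 CPM. A BDNF UMI was found in 352 of 2736 Gran-like nuclei (12.9%, 11.7 to 14.2%), with up to 14 UMIs in 1 nucleus, and in 0.410% of the deeper InN-like nuclei. In every library BDNF was higher in Gran-like than in ExN-like nuclei and ARC was higher in ExN-like than in Endo-like nuclei, the class next below.

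Neighbours in each gene's order of classes were compared library by library. Over 63 neighbouring pairs of 9 genes (FOSB left out), 0 passed a two-sided exact permutation test with Benjamini-Hochberg adjustment. With 6 libraries the smallest possible p is 0.03125, which becomes an adjusted p of 0.394 in this family, so no pair could pass. The 5 pairs that reached this p were BDNF in Gran-like over ExN-like and in Micro-like over Oligo-like, ARC in ExN-like over Endo-like, EGR3 in Gran-like over Endo-like, and JUNB in Endo-like over Micro-like nuclei. Micro-like nuclei held more Gran marker transcripts than Oligo-like nuclei, as given above, and their part in BDNF was not tested. No other pair kept its order in 6 of 6 libraries. Neighbours in these orders are therefore not shown to differ beyond their spread.

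Summing the 3 neuron classes against the 7 other named classes in each library gave a direct test, by edgeR's quasi-likelihood test with the library as a block. This comparison called 64.3% of 22509 genes, 33.5% higher and 30.8% lower in neurons, so a call is common and the size and order carry the information. Of the 8 genes tested (FOSB and NR4A1 had too few UMIs), 5 were higher in neurons and 2 lower. BDNF was higher by a log2 fold change of 2.45 ± 0.23 (SE, adjusted p = 7e-07), ARC by 1.75 ± 0.31 (adjusted p = 2.49e-04) and EGR3 by 1.53 ± 0.29 (adjusted p = 3.91e-04), each in 6 of 6 libraries. NPAS4 (1.34 ± 0.55, adjusted p = 0.0465) and EGR1 (0.89 ± 0.28, adjusted p = 0.0126) were higher in 5 of 6 libraries. Their calls were less firm: EGR1 passed in 9 of 12 alternatives (log2 fold change 0.51 to 1.01) and NPAS4 in 5 of 11 (0.85 to 1.76). With a library left out, EGR1 lost its call without ALP 2 (0.82) and without control 1 (0.79). NPAS4 lost it without ALP 1 (1.06), ALP 3 (0.98), control 1 (1.51) or control 2 (1.38). FOS (-1.13 ± 0.21, adjusted p = 3.49e-04) and JUN (-0.86 ± 0.20, adjusted p = 0.00233) were lower in neurons in 6 of 6 libraries, at 3.62 against 9.73 CPM and 7.20 against 15.1 CPM on average. JUNB, at 7.13 against 7.73 CPM, did not pass (0.21 ± 0.24, adjusted p = 0.462).

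**Figure D2:**
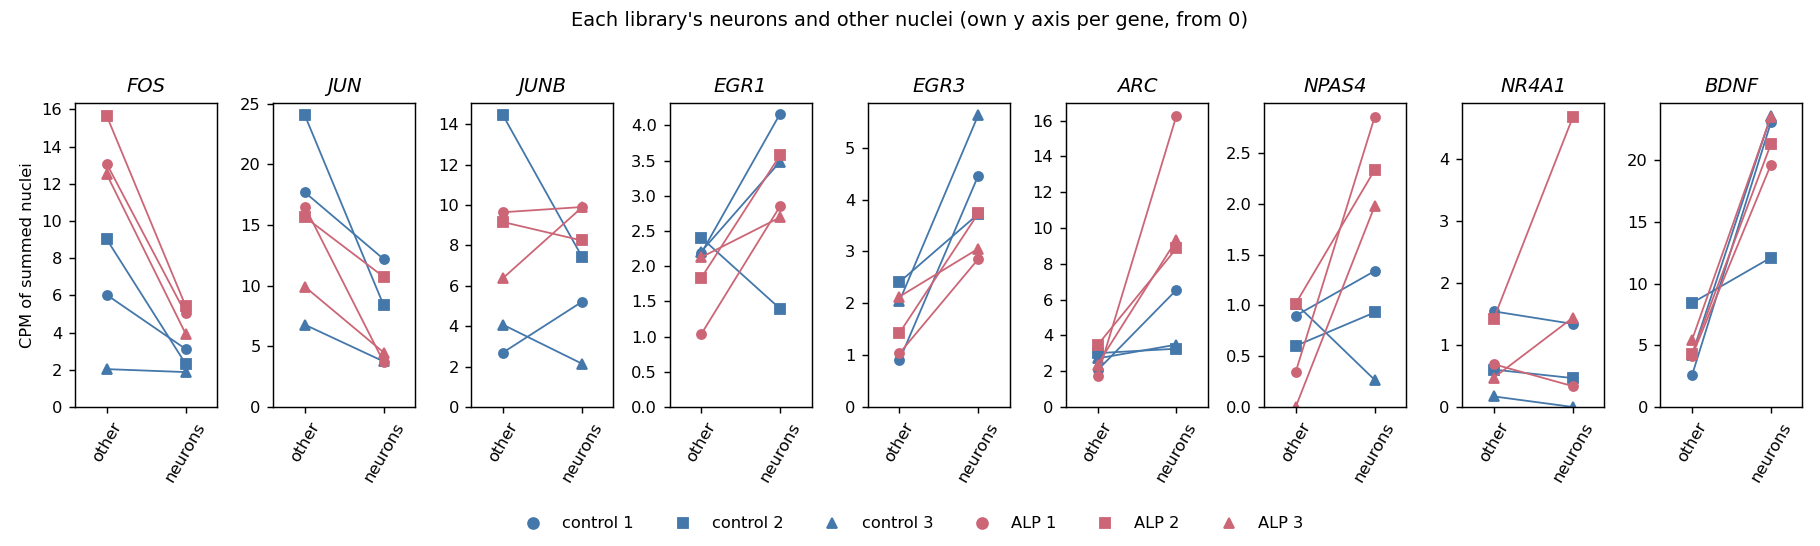
CPM of 9 genes in the summed neurons and the summed other named classes of each library, with a line joining the 2 sums of 1 library and a y axis per gene that starts at 0. All 6 lines rose for EGR3, ARC and BDNF and all 6 fell for FOS and JUN, while those of JUNB and NR4A1 ran both ways.

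Fixed lists of further inducible genes, upstream regulators, BDNF-related genes and heat shock genes also included genes called in each direction. Over all genes, 33.5% were called higher and 30.8% lower in neurons. Of 15 further inducible transcription factors tested in neurons against other nuclei, 3 were higher and 5 lower, with a median log2 fold change of -0.41 (0.04 over all genes). The higher ones were NR4A3 (1.65), FOSL2 (1.46) and EGR4 (1.38), and the lower ones included the Krüppel-like factors KLF2 (-3.70), KLF6 (-1.63) and KLF4 (-1.50), of which KLF2 is an endothelial factor. Of 21 inducible effectors, 11 were higher and 4 lower (median 0.95), led by the prohormone convertase PCSK1 (2.06), the G-protein regulator RGS4 (2.01), the matrix protein CCN1 (-2.07) and TIPARP (-1.91). The postsynaptic scaffold HOMER1 (1.64) and the sorting receptor SORCS3 (0.95) were also higher. Of 20 upstream regulators, 8 were higher and 4 lower (median 0.08). Here the calcium-dependent kinases CAMK4 (2.06) and CAMKK2 (1.41), the L-type calcium channel gene CACNA1C (2.05), the calcineurin subunit gene PPP3CA (1.49) and MEF2C (1.07) were higher. Of 8 genes of BDNF processing and reception, NTF3 (2.41) and NTRK3 (1.61) were higher and SORT1 (-0.68) and FRS2 (-0.53) lower, while NTRK2, which encodes TrkB, did not pass (0.15, adjusted p = 0.320, edgeR). Of 5 heat shock genes, HSPH1 (0.86) was higher and HSPB1 (-2.77), BAG3 (-1.36), DNAJB1 (-1.29) and HSPA5 (-0.59) were lower.

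Within ExN-like nuclei the activity genes were often found in the same nuclei. Of 2857 ExN-like nuclei, 117 held UMIs of 2 or more of the 10 genes and 32 of 3 or more, and 2 or more were found in 4.10% of nuclei. The share with 2 or more was 3.41% in Endo-like nuclei (17 of 498), 1.90% in the Gran-like (52 of 2736) and 0.111% in the Oligo-like nuclei (9 of 8088), whose median depths were all lower. ARC was found in 22 of the 47 nuclei with FOS (46.8%), 20 of the 39 with NPAS4 (51.3%) and 18 of the 45 with EGR1 (40.0%), whereas it was found in 6.58% of all ExN-like nuclei. JUN did not share this pattern, since 1 of its 48 nuclei held FOS and 0 held NPAS4 or EGR1. Nuclei of 1 library share their source and differ in depth, so these shares are a description and carry no test.

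**Figure D3:**
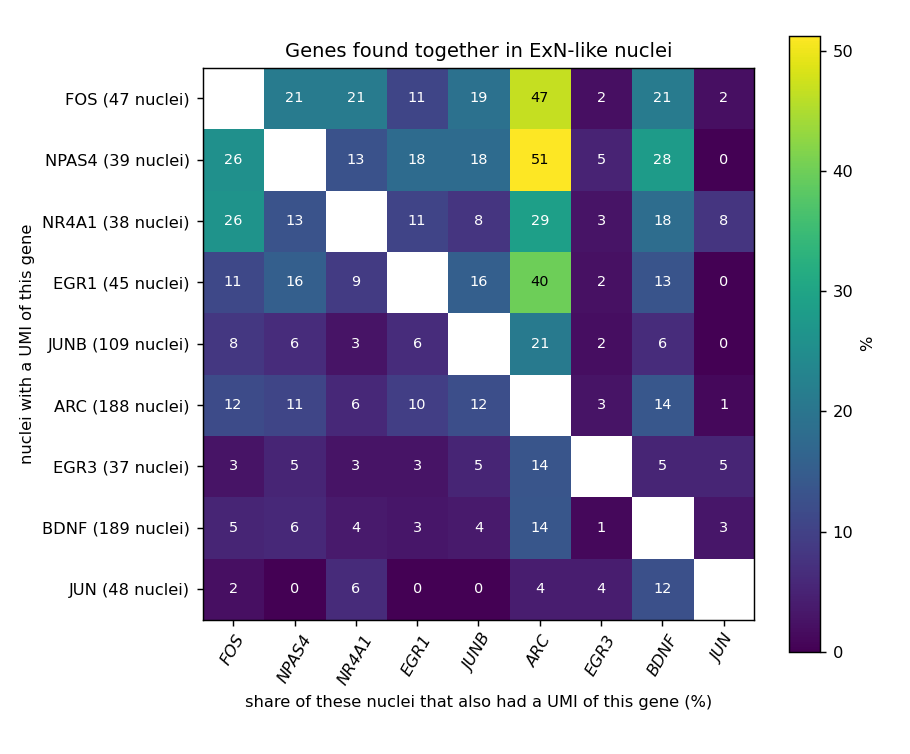
Share, in percent, of ExN-like nuclei with a UMI of the gene at the left that also held a UMI of the gene below, pooled over 6 libraries. The ARC column was brightest for nuclei with NPAS4 (51.3%), FOS (46.8%) and EGR1 (40.0%), and the JUN column was dark throughout.

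Levels also differed between clusters of 1 class. In Astro-like nuclei, the cluster led by GFAP, AQP4 and CHI3L1 (522 nuclei) had a FOS level of 33.2 CPM over the pooled libraries against 6.70 CPM in the other cluster (2705 nuclei), and was the higher in 5 of 6 libraries. Its JUNB level was the higher in 6 of 6 libraries (15.2 against 4.65 CPM). In InN-like nuclei, FOS stood at 14.1 CPM in the cluster led by CALCR, VIP and CALB2, and between 0.523 and 6.67 CPM in the other 4 clusters. In ExN-like nuclei, ARC stood at 33.6 CPM in the cluster led by NDST4 (237 nuclei) and between 15.9 and 19.3 CPM in the other 4 clusters, but it was the higher in only 2 of 5 libraries against the largest of these. The 10 genes were left out of the clustering, so none of them defined these clusters.

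The main comparison of the study asks what differs in the ALP hippocampus. Over all kept nuclei of a library, FOS stood at 4.61, 4.81 and 2.22 CPM in the control libraries and at 7.81, 9.62 and 7.78 CPM in the ALP libraries. ARC stood at 4.28, 3.61 and 3.55 CPM in control and at 11.7, 6.78 and 6.24 CPM in ALP libraries. NPAS4 stood at 1.04, 0.962 and 0.799 CPM in control and at 2.14, 1.76 and 1.25 CPM in ALP libraries. The ALP libraries thus lay above all control libraries for these 3 genes and below them for EGR1 (3.33 ± 0.242 against 2.71 ± 0.0468 CPM, SD, n = 3), where 5.5% of 22749 genes lay above and 22.4% below. The other 6 genes overlapped between the groups.

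None of the 9 genes tested over all nuclei passed edgeR's quasi-likelihood test after adjustment over all genes, and 0% of the 22749 genes did. The log2 fold change was 1.35 ± 0.34 for FOS (SE, adjusted p = 0.08), 1.31 ± 0.33 for ARC (adjusted p = 0.0791), 1.08 ± 0.39 for NPAS4 (adjusted p = 0.145) and -0.07 ± 0.31 for EGR1 (adjusted p = 0.916). FOS, ARC and NPAS4 had an unadjusted p under 0.05, as had 5323 of all genes. DESeq2 called 1740 genes, FOS and ARC among them (adjusted p = 0.0106 and 0.0142). Relative to total UMIs alone, the median over all genes was -0.22 in ALP on the log2 scale, and EGR1 lay below in CPM but near 0 in the scaled fit. With no upper limit on genes per nucleus, ARC (8.36, 3.04 and 6.27 CPM in control and 12, 7.93 and 8.24 CPM in ALP libraries) overlapped between the groups, as did NPAS4 and EGR1. FOS (1.37 to 4.29 and 4.92 to 6.32 CPM) and JUNB (4.96 to 5.87 and 7.05 to 9.64 CPM) then lay above in ALP without overlap. The share of all genes that stand apart in this setting was not computed. The make-up of the kept nuclei moved with ARC. ExN-like nuclei gave 12.4%, 14% and 7.18% of the kept UMIs in control and 32.0%, 24.0% and 27.4% in ALP libraries. More nuclei of a class and more transcript per nucleus cannot be told apart in such sums. Of ARC UMIs in the files, the limits on nuclei kept 24.2%, 25% and 17.8% in control and 45.2%, 33.5% and 41.1% in ALP libraries. The part of these limits in the make-up was not tested.

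**Figure D4:**
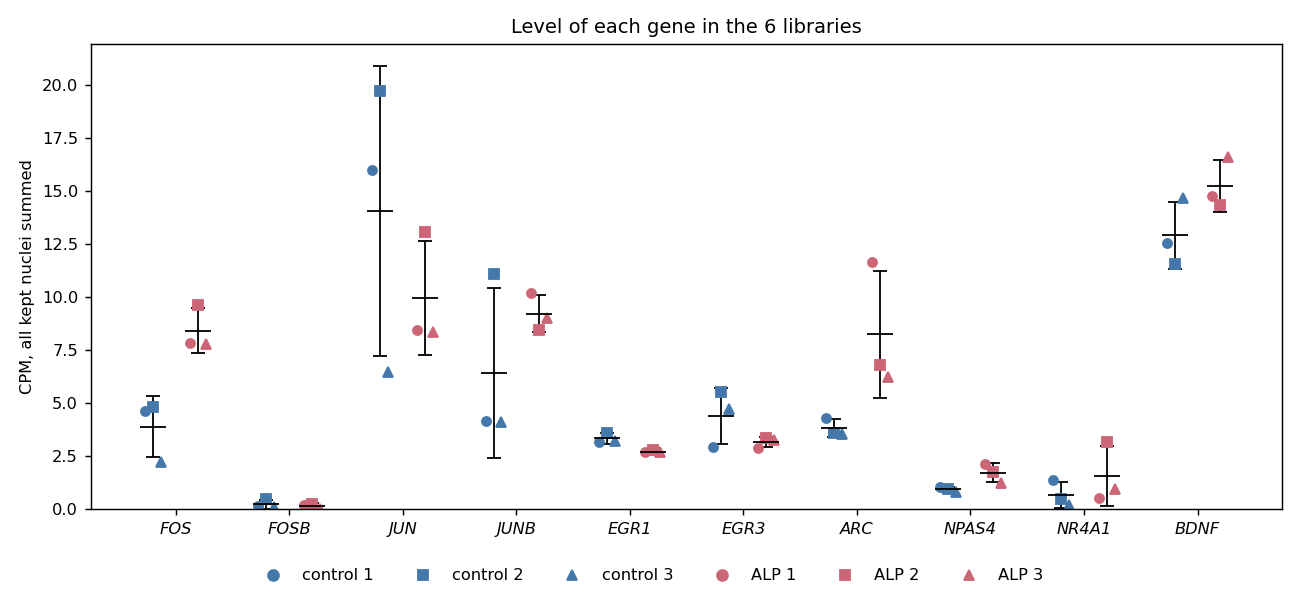
CPM of each gene over all kept nuclei of the 3 control (blue) and 3 ALP (red) libraries, with the mean as a bar and the SD (n = 3) as whiskers. The 3 ALP libraries lay above the 3 control libraries for FOS, ARC and NPAS4, below them for EGR1, and among them for JUN, JUNB, EGR3, NR4A1, BDNF and FOSB.

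Class by class, FOS in Oligo-like nuclei was the 1 call among the genes tested. FOS stood at 5.16, 7.65 and 1.26 CPM in the control libraries (18, 2 and 3 UMIs) and at 14, 15.5 and 14.9 CPM in the ALP libraries (21, 30 and 31 UMIs). The groups did not overlap, and the ALP libraries lay close together. The log2 fold change was 2.07 ± 0.49 (SE, adjusted p = 0.0376 over 11515 genes, edgeR), where 1.75% of genes were called higher. The share of Oligo-like nuclei with a FOS UMI, each thinned to 1000 UMIs, was 0.253% ± 0.178 in control and 1.28% ± 0.108 in ALP libraries (SD, n = 3, exact permutation p = 0.1, the smallest that 3 against 3 allow), and unthinned it was 16 of 2237, 2 of 160 and 3 of 1379 nuclei against 17 of 1219, 28 of 1400 and 27 of 1693. The call was not stable to leaving out a library: without ALP 1 the fold change was 2.12 (adjusted p = 0.121), without ALP 3 2.07 (adjusted p = 0.165) and without control 3 1.49 (adjusted p = 0.132). Without ALP 1 the test called 1 gene in Oligo-like nuclei in place of 530.

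Oligo-like nuclei of the 2 groups lay mostly in different clusters. Clusters are named here by 1 of their 10 leading genes. Those with KLK6 and with IL33 (1706 and 1564 nuclei) held most ALP nuclei, and those with NINJ2 and with ENPP6 (1858 and 1690 nuclei) held most nuclei of control 1 and 3. In the KLK6 cluster FOS stood at 19.99, 19.8 and 19.0 CPM in ALP libraries, and 0 UMIs were found in 148 control nuclei, which allows up to 11.6 CPM. In the IL33 cluster it stood at 8.80, 18.4 and 16.8 CPM in ALP libraries, and 0 UMIs were found in 391 control nuclei, which allows up to 5.89 CPM. In the ENPP6 cluster pooled FOS was 3.77 CPM in control and 14 CPM in ALP libraries, with overlapping libraries, and in the NINJ2 cluster it was 5.12 CPM in control and 2.92 CPM in ALP libraries. Summed markers of most other classes in Oligo-like nuclei overlapped between the groups. The 7 Endo markers gave 38.3 to 59.9 CPM in control and 31.3 to 40.2 CPM in ALP libraries. The 7 Astro markers gave 127 to 168 and 143 to 166 CPM. The 8 Micro markers gave 23.8 to 34.1 and 21.7 to 25.9 CPM. Gran markers gave 252 to 287 and 241 to 311 CPM, and ExN markers 72.7 to 104.45 and 67.5 to 104.56 CPM. InN markers were lower in ALP, at 99.5 to 124 and 76.8 to 97.4 CPM. The part of these transcripts in the FOS level was not tested.

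**Figure D5:**
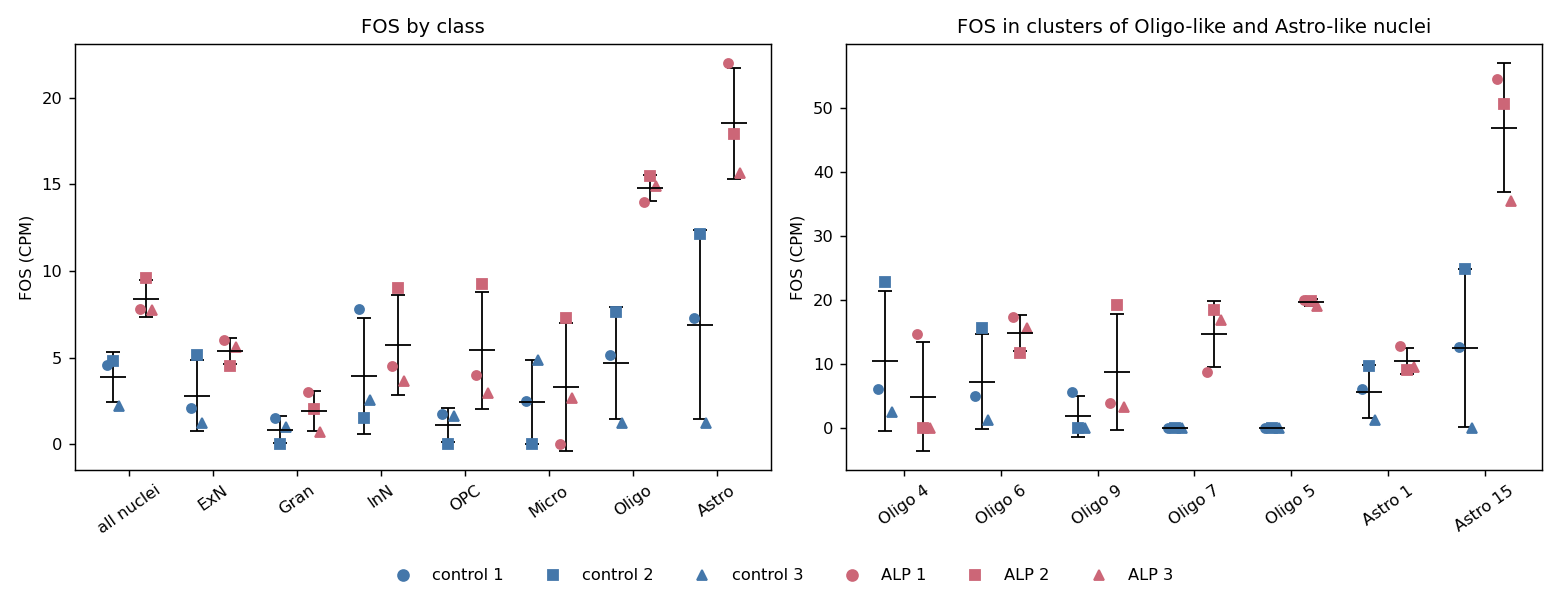
FOS level in CPM in classes of nuclei (left) and in clusters of Oligo-like and Astro-like nuclei, shown by cluster number (right), with 1 point per library (blue control, red ALP), the mean as a bar and the SD (n = 3) as whiskers. ALP libraries lay at 14 to 15.5 CPM in Oligo-like nuclei against 1.26 to 7.65 CPM in control libraries. Cluster 5 is the KLK6, 7 the IL33, 6 the ENPP6 and 4 the NINJ2 cluster, and cluster 15 is led by GFAP.

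FOS had a higher mean in ALP in all 8 classes used here, and the ALP libraries lay above all control libraries in 4 of them. Besides Oligo-like nuclei (9.65% of genes lay above) these were Astro-like (6.8%), OPC-like (7.99%) and Endo-like nuclei (4.87%). Outside these 8, the mean was lower in ALP in 105 mural nuclei (45.8 ± 6.93 against 25.0 ± 43.3 CPM, from 7 and 1 UMIs). It was higher in 169 ependymal nuclei (3.60 ± 6.24 against 21.6 ± 18.8 CPM, from 1 and 3 UMIs). The groups overlapped in both. In Astro-like nuclei FOS stood at 7.31, 12.1 and 1.25 CPM in control and at 22.0, 17.9 and 15.7 CPM in ALP libraries, with a log2 fold change of 1.72 ± 0.57 that did not pass (adjusted p = 0.159, edgeR, which called 0.0986% of genes higher). Within the GFAP-led cluster, which was 4.67 to 18.9% of Astro-like nuclei in control and 18.8 to 22.7% in ALP libraries, FOS stood at 12.7, 24.8 and 0 CPM against 54.6, 50.7 and 35.5 CPM. The 6 Ependymal markers moved with it in Astro-like nuclei (315 to 387 CPM in control and 399 to 637 CPM in ALP libraries), and their part in the result was not tested. In Endo-like nuclei FOS stood at 27.2, 41.4 and 0 CPM against 64.5, 74.3 and 59.2 CPM, from 14 UMIs in each group. With no upper limit on genes per nucleus FOS in Endo-like nuclei overlapped, at 28.2, 80.7 and 11.9 CPM in control and 44.7, 58.8 and 36.6 CPM in ALP libraries. In OPC-like nuclei it stood at 1.75, 0 and 1.63 CPM against 4.03, 9.26 and 2.97 CPM. Control 3 was the lowest library in 4 of the 8 classes for FOS and in 5 of 8 for JUN and for JUNB.

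In ExN-like nuclei, which held most ARC and NPAS4 UMIs, none of the 5 genes tested passed, as edgeR called 0% of 13329 genes. An unadjusted p under 0.05 was found for 2263 genes, ARC and FOS among them, and DESeq2 called 306 genes but 0 of the 5. ARC stood at 17.2, 10.3 and 11.1 CPM in control and at 27.8, 18.5 and 16.1 CPM in ALP libraries, so the groups overlapped (log2 fold change 0.85 ± 0.33, adjusted p = 0.238, edgeR). The thinned share of ExN-like nuclei with an ARC UMI was 1.09% ± 0.328 in control and 1.93% ± 0.522 in ALP libraries (SD, n = 3, exact permutation p = 0.1, without overlap). Over 15 alternatives the log2 fold change of ARC ran from 0.20 in the largest ExN-like cluster alone to 1.19 without control 1, was 0.59 with no upper limit on genes per nucleus, and passed in 0 of them (adjusted p from 0.164 to 0.92, edgeR and DESeq2). The libraries differed in their mix of ExN-like clusters: cluster 19 held 69.8% of ExN-like nuclei in control 3, 23.8% in control 2, 5.24% in control 1 and 7.82 to 14.5% in ALP libraries. FOS, whose thinned share was also without overlap (0.290% ± 0.0911 and 0.536% ± 0.0416), and JUNB were positive in the same fit, at 1.34 ± 0.55 (adjusted p = 0.259, edgeR) and 0.99 ± 0.45 (adjusted p = 0.303). BDNF (-0.27 ± 0.33, adjusted p = 0.725) and JUN (-0.70 ± 0.63, adjusted p = 0.611) were negative. Summed Micro and Endo markers were lower in ALP ExN-like nuclei, with 31.3 to 77.8 against 18.6 to 26.4 CPM for 8 Micro markers. The 7 Endo markers gave 48.5 to 61.8 against 32.1 to 38.6 CPM. Ependymal and Gran markers were also lower. Those of OPC overlapped (407 to 499 against 233 to 626 CPM), as did those of Astro, Oligo, InN and mural cells. The part of any of these was not tested.

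BDNF in Gran-like nuclei, which held 48.0% of its UMIs, stood at 36.4, 63.1 and 55.9 CPM in control and at 67.9, 61.1 and 60.3 CPM in ALP libraries. The groups overlapped and the test did not pass (0.45 ± 0.24, adjusted p = 0.369, edgeR), as for JUN (0.12 ± 0.50) and JUNB (1.03 ± 0.57) there, while 0.682% of 10267 genes were called. With no upper limit on genes per nucleus, BDNF stood at 32.4, 45.5 and 45.2 CPM in control and at 62.9, 51.5 and 54.6 CPM in ALP libraries, without overlap (0.59, adjusted p = 0.122, edgeR). How many of all genes stand apart in Gran-like nuclei in that setting was not computed.

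JUNB stood apart between the groups in Micro-like and Oligo-like nuclei. In Micro-like nuclei (8.08% of genes lay above) it stood at 2.52, 0 and 4.85 CPM in control and at 30.2, 20.1 and 10.7 CPM in ALP libraries, from 4 and 24 UMIs. In Oligo-like nuclei it stood at 0.860, 3.83 and 3.37 CPM in control and at 5.33, 5.16 and 5.76 CPM in ALP libraries, with a log2 fold change of 1.46 ± 0.58 that did not pass (adjusted p = 0.175, edgeR). ARC in InN-like nuclei (6.02% of genes lay above) rested on ALP 1, at 6.55 CPM, while the other ALP libraries stood at 0.949 and 1.46 CPM against 0.516 to 0.752 CPM in control libraries. EGR3 lay above in Micro-like and below in Endo-like nuclei (3.97% of genes lay below), from 8 and 3 UMIs, and overlapped in Micro-like nuclei with no upper limit on genes. JUN did not stand apart in any class, and its fits in Astro-like (-0.44 ± 0.46), Oligo-like (0.72 ± 0.51) and OPC-like nuclei (0.55 ± 0.47) did not pass, where 0.187%, 4.6% and 1.63% of genes were called. NR4A1 overlapped in all 8 classes: over all nuclei ALP 2 held 38 of its 78 UMIs, at 3.18 CPM, and the other ALP libraries stood at 0.535 and 0.96 CPM against 0.178 to 1.36 CPM in control libraries.

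Of the thinned shares of 80 gene and class pairs, 10 stood apart, 9 higher and 1 lower in ALP. Each had an exact permutation p of 0.1, the smallest that 3 against 3 allow, so no pair could pass, and the share of all genes that stand apart on this measure was not computed. Where groups do not differ, a pair stands apart with a probability of up to 0.1, so 10 of 80 is not itself a result. The 10 pairs were FOS in ExN-like, Astro-like, Oligo-like and OPC-like nuclei, JUNB in ExN-like, Oligo-like and Micro-like nuclei, ARC in ExN-like nuclei, and EGR3 higher in Micro-like and lower in Endo-like nuclei.

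Whether the ALP difference was the same in neurons and in other nuclei was tested as an interaction. Of the 8 genes tested 0 passed, as did 0% of 22509 genes by edgeR, of which 1875 had an unadjusted p under 0.05, and no other tool was run. The difference in neurons minus that in other nuclei was 2.32 ± 1.04 on the log2 scale for NPAS4 (adjusted p = 0.583), 1.16 ± 0.57 for ARC (adjusted p = 0.629) and -0.47 ± 0.43 for FOS (adjusted p = 0.823). For the other 5 genes it lay between -0.50 and 0.39.

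The genes of the fixed lists showed few differences between the groups. Over all classes, 1 listed gene passed: HSPA5, an endoplasmic reticulum chaperone, which rose in Oligo-like nuclei from 26.9 ± 4.25 to 49.1 ± 3.28 CPM (SD, n = 3, log2 fold change 0.95 ± 0.23, adjusted p = 0.0376, edgeR). Without ALP 1 edgeR called 0 genes higher in Oligo-like nuclei, so this call was lost. No inducible transcription factor, effector, upstream regulator or BDNF-related gene passed in any class. Over all nuclei, the 16 further transcription factors had a median log2 fold change of 0.06, the 21 effectors 0.06, the 20 regulators -0.01, the 8 BDNF-related genes -0.03 and the 5 heat shock genes -0.08, against 0.80 for the 9 genes tested here and -0.002 over all genes. The further transcription factors with the most UMIs were NR4A2, at 26.7 ± 8.30 CPM in control and 43.0 ± 8.94 CPM in ALP libraries (log2 fold change 0.90, adjusted p = 0.0956, edgeR), and CREM, at 32.3 ± 2.23 and 30.7 ± 1.80 CPM. HOMER1 stood at 105 ± 4.78 CPM in control and 120 ± 11.4 CPM in ALP libraries, and among the leading genes of the other lists SORCS3, MEF2C, PPP3CA, NTRK2, NTRK3, HSPH1 and HSPA5 overlapped between the groups.

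The genes most like each of these 9 genes over 54 class and library sums were found among 10575 genes by the Pearson correlation r of log2(CPM + 1). The sums of 1 library share its depth, and those of 1 class its composition, so r is given as a description. BDNF was most like SYT7 (r = 0.84), NUDCD3 (0.81) and FBXO34 (0.80). SYT7, which encodes a synaptotagmin, also stood second for EGR3 (0.67), behind RSPO3 (0.67) and before KCNH3 (0.65). JUN was most like RGCC (0.76), EIF3F (0.75) and the glucocorticoid receptor gene NR3C1 (0.73). FOS was most like LAMP1 (0.70), IFITM2 (0.68) and SERPINH1 (0.67), JUNB most like TRAPPC5 (0.70), CETN1li1 (0.67) and HIS3.3Ali1 (0.67), and ARC most like UBALD1 (0.69), EFR3A (0.64) and TCHP (0.62). The highest r was 0.60 for EGR1 (PPP3CC), 0.56 for NPAS4 (ANKRD33Bli1) and 0.51 for NR4A1 (CCT3li1), whose low counts limit any likeness.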

How the data were processed

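The deposited files held, per library, raw counts of UMIs per feature and nucleus, which the authors made with Cell Ranger (version 3.1.0 in the submitters' processing notes). The genome build and the use of strand are not given in the sources used here, so reads of antisense partners cannot be told apart. Nuclei with 200 to 2500 genes and at most 5% mitochondrial counts were kept. The libraries shared 4 to 18 barcodes pairwise, and 1.43 to 5.10% of kept nuclei were marked as doublets and kept. Clustering used scanpy 1.11.5 and leidenalg 0.10.2 (2000 variable genes, 30 principal components, 20 neighbours, resolution 2), without the 10 genes and the listed genes, and classes were named from at least 3 markers.

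For each class, the UMIs of a library were added up. R 4.3.3 then ran the quasi-likelihood test of edgeR 4.0.16 on these sums, with TMM scaling and a filterByExpr minimum count of 10, and a call needed an adjusted p under 0.05 over all genes tested and an absolute log2 fold change over 0.25. The authors tested nuclei with a mixed model, whereas here the library was the replicate, so p-values measure the spread between libraries. Shares of nuclei, thinned to 1000 UMIs with shallower nuclei left out, went through an exact permutation test over libraries in scipy 1.17.1. On simulated data the fits recovered 19.6% of 2-fold changes over all nuclei, 23.2% in ExN-like, 25% in Oligo-like and 35.4% in Gran-like nuclei. For the interaction it was 23.2%. Of 4-fold changes they recovered 85.4%, 81.7%, 92%, 95.5% and, for the interaction, 59.8%. Most 2-fold differences between the groups would thus go uncalled in these fits.

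Named were the 10 genes, of each list the called genes (at most the 4 largest per comparison) and the 2 with the most UMIs, and the 3 genes most like each of the 9 with at least 50 UMIs. The 10 genes and the lists were chosen with earlier results of these data known. Alternatives were DESeq2 1.42.0, other scaling, no filter on low counts, no upper limit on genes, doublets removed, another resolution, other thinning, the replicate number as a block and each library left out. The ExN-like cluster alone, the Micro-like cluster led by GPNMB left out, the shallow cluster counted as neurons and fits without scaling were added after seeing the data.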

Additional observations from a re-analysis of the deposited data

Results flagged for a closer look

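The difference of EGR3 between ALP and control ran in opposite directions in Micro-like and Endo-like nuclei, with no overlap between the groups in either class. In Micro-like nuclei EGR3 stood at 1.26, 0 and 0 CPM in control and at 3.35, 3.65 and 10.7 CPM in ALP libraries, a difference in means of 5.49 CPM from 1 and 7 UMIs. The 7 Gran markers summed to 553 to 1496 CPM in control and 894 to 1246 CPM in ALP Micro-like nuclei. Their part in this difference was not tested. In Endo-like nuclei it stood at 2.47, 13.8 and 6.17 CPM in control and at 0 CPM in the ALP libraries, a difference in means of -7.48 CPM from 3 and 0 UMIs. The 0 UMIs of the ALP libraries allow up to 14.4 CPM over the group, above the control mean of 7.48 CPM, so a lower level in ALP was not detectable at this depth. With no upper limit on genes per nucleus the groups overlapped in Micro-like nuclei. The difference between the classes was not tested, and EGR3 had too few UMIs for a fit in either class.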

How the results depend on the processing

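The 1 call by class, FOS in Oligo-like nuclei, became 2 calls with no filter on low counts (FOS in Astro-like nuclei was added) and 0 to 1 when a library was left out, with 0 without ALP 1, ALP 3 or control 3. Over all nuclei the 0 calls became 2 under DESeq2 and 2 with no filter (FOS and ARC each time), and 0 to 2 when a library was left out (FOS and JUNB without control 2). The 7 calls between neurons and other nuclei were 5 to 7 when a library was left out. The 10 shares of nuclei that stood apart then became 13 to 21, a count that leaving out a library can only keep or raise. The causes of the other changes were not tested.

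With the replicate block FOS in Oligo-like nuclei had a log2 fold change of 2.14 (adjusted p = 0.0618, edgeR), which left 0 calls by class, and JUN in Gran-like nuclei turned to -0.012. The numbers are only names: same-numbered libraries correlated at -0.097, -0.056 and -0.085 over all nuclei, and the block changed no other call.

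Of 475 alternatives for single genes, 437 kept direction and call, 13 lost a call, 7 gained one and 18 changed the sign of a value that was not called. With no upper limit on genes these were the log2 fold changes over all nuclei of EGR1 (0.0799), EGR3 (0.0181) and JUN (0.15), that of BDNF in ExN-like nuclei (0.41), and the ALP difference in neurons minus that in other nuclei (the interaction) of BDNF (0.25), EGR3 (0.45) and JUN (0.13). With a library left out, values ran over all nuclei from -0.10 to 0.0244 for EGR1, -0.47 to 0.0008 for EGR3 and -0.63 to 0.073 for JUN (above 0 without control 2), from -0.47 to 0.15 for BDNF in ExN-like nuclei (above 0 without control 3), and from -0.29 to 0.47 for JUN in Gran-like nuclei (below 0 without ALP 2 and control 3). The interaction ran from -0.53 to 0.47 for BDNF, -0.72 to 0.14 for JUN and 0.0 to 1.17 for JUNB. Genes called in Oligo-like nuclei ran from 1 (without ALP 1) to 1353 (no filter) around 530, and DESeq2 called more than edgeR in Astro-like (213 against 19), Gran-like (205 against 70) and InN-like nuclei (469 against 107). Depth limits FOSB, NPAS4 and NR4A1, and every gene in Endo-like nuclei.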
